A study of Homo sapiens with 45 samples.

Results

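In HEK293T cells treated with the solvent DMSO, 2847 of 17440 distinct CTCF regions carried both an MBD2 region and an MBD3 region and no TET1 region. They are 16.3% of the CTCF regions (95% Wilson interval 15.8 to 16.9, which covers counting over regions only). A region was a member when its interval in the CTCF peak list overlapped by 1 bp or more an interval of the DMSO MBD2 list and one of the DMSO MBD3 list, and none of the DMSO TET1 list. Entries with the same coordinates, which mark several summits in 1 interval, were taken once. The members are 24.2% of the 11747 CTCF regions with MBD2, 35.2% of the 8099 with MBD3, and 41.5% (40.3 to 42.7) of the 6863 with both. The other 4016 regions with both also had TET1. The 4 DMSO lists chose the members, so all DMSO values below are descriptions without a test. A region counted as having no TET1 was one not listed by the authors' peak caller, which does not show that the protein was absent.

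The series concerns NuRD at CTCF sites in HEK293T, a human embryonic kidney cell line. Cells received 30 µM BPK25, 0.5 mM IAA (an auxin, which in engineered cells triggers loss of a degron-tagged protein) or DMSO for 72 h, and chromatin was precipitated with an antibody to CTCF, to MBD2, to MBD3 or to TET1. The labels describe the cultures as the parental line and edited cells derived from it, without saying which libraries came from edited cells or which protein IAA acts on. The authors called peaks once for the 3 libraries of a treatment and antibody together, so each value comes from 1 list and has no replicate error. Differences between antibodies, treatments or classes of regions were therefore not tested, and nothing below is shown to be particular to the members. In all, 45 libraries fall into 15 groups of 3, of which 9 libraries are input DNA.

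CTCF is a zinc finger protein that binds a long DNA motif and holds cohesin at the anchors of chromatin loops and at insulators. MBD2 and MBD3 belong to the same family of methyl-CpG-binding domain proteins and occupy the same place in NuRD, a complex that joins nucleosome remodelling with histone deacetylation, so that a complex holds one or the other. MBD2 binds methylated CpG, whereas mammalian MBD3 has lost most of that affinity. TET1 oxidises methylated cytosine and so opens a route to its removal.

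Peak lists do not give the depth of a library. The smallest local background of a list, in fragments, is called its floor here and serves as a measure of relative depth. The floor was 3.77 to 5.68 fragments in the DMSO lists. The BPK25 floors came to 5.89% (CTCF), 49.5% (MBD2), 7.92% (MBD3) and 20.4% (TET1) of those in DMSO, and the IAA floor of CTCF to 21.6%. Under IAA the floors for TET1, MBD3 and MBD2 rest on 2, 1 and 4 regions. The treated lists were also short, with 375 (CTCF), 510 (MBD2), 374 (MBD3) and 777 (TET1) regions under BPK25. Under IAA they held 595, 138, 95 and 100 regions in the same order. The length of a list limits the share of CTCF regions that it can cover. No share below is adjusted for depth or for list length.

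CTCF was moderately enriched at the members. Their median CTCF fold, the authors' ratio of pileup to local background at the summit, was 4.60 (exact binomial interval of the median 4.54 to 4.65), and the 5th and 95th percentiles were 2.94 and 6.98. The median was 5.31 (5.25 to 5.37) at the 4016 CTCF regions with MBD2, MBD3 and TET1. It was 4.16 (4.12 to 4.20) at the 3660 regions with MBD2 alone, 3.98 (3.89 to 4.08) at the 940 with MBD3 alone and 3.64 (3.60 to 3.69) at the 4083 with no partner. The members thus lay between the regions with 1 NuRD subunit and those that also had TET1, with wide overlap of the distributions. Their median summit pileup was 42 CTCF fragments (interval 42 to 43, n = 2845 solved regions), against 51 at regions with all 3 partners, 37 with MBD2 alone and 29 with none.

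MBD2 enrichment at the members followed the same order. The MBD2 region at a member had a median fold of 4.74 (4.69 to 4.79), against 5.49 (5.42 to 5.57) where TET1 was also listed and 4.31 (4.26 to 4.35) where MBD2 was the only partner. The median over the whole MBD2 list was 4.54. For MBD3, the median fold was 3.87 (3.82 to 3.91) at the members, against 4.33 (4.30 to 4.39) where TET1 was also listed and 3.47 (3.38 to 3.53) where MBD3 was the only partner. Over the whole MBD3 list it was 3.84. In the MBD3 list, 426 members (15.0%) had a −log10 q under 5, against 13.9% of all CTCF regions with MBD3. In the MBD2 list these were 184 members (6.46%), against 7.47% of all CTCF regions with MBD2, and in the CTCF list 148 members (5.20%), against 14.4% of all CTCF regions. Folds of different lists depend on their depth and are not compared between antibodies.

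**Figure D1:**
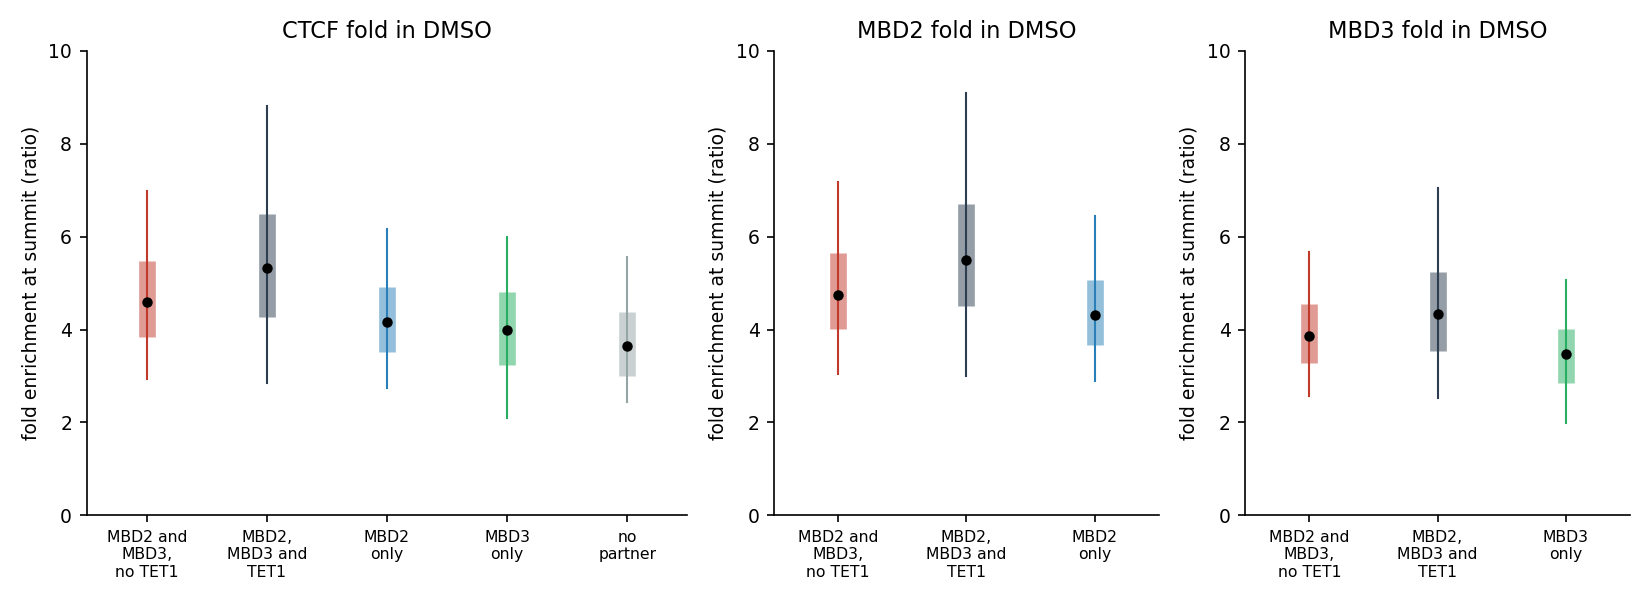
Fold enrichment (ratio, y axis) of CTCF, MBD2 and MBD3 in DMSO at CTCF regions grouped by their listed partners (x axis). Points are medians, thick bars the quartiles and thin lines the 5th to 95th percentiles over regions. The members, at the left of each panel, have medians of 4.60, 4.74 and 3.87, below the regions that also have TET1 and above those with a single NuRD subunit.

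Where CTCF was stronger, both subunits were stronger. Across the 2847 members, Spearman's rho of fold was 0.648 between CTCF and MBD2, 0.635 between CTCF and MBD3 and 0.615 between MBD2 and MBD3. Across the 4016 regions with all 3 partners these values were higher, at 0.755, 0.743 and 0.739. Among the 2558 members with a local CTCF background of at most 3 times the floor, the values were 0.616, 0.602 and 0.583. These are descriptions across regions, which may share the DMSO input libraries as control and share their local sequence. Going up the quartiles of CTCF fold among the members, the median MBD2 fold was 3.81, 4.51, 5.00 and 5.81, and the median MBD3 fold was 3.17, 3.73, 4.02 and 4.72. This order is a description over regions of lists that chose the members, and it was not tested.

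**Figure D2:**
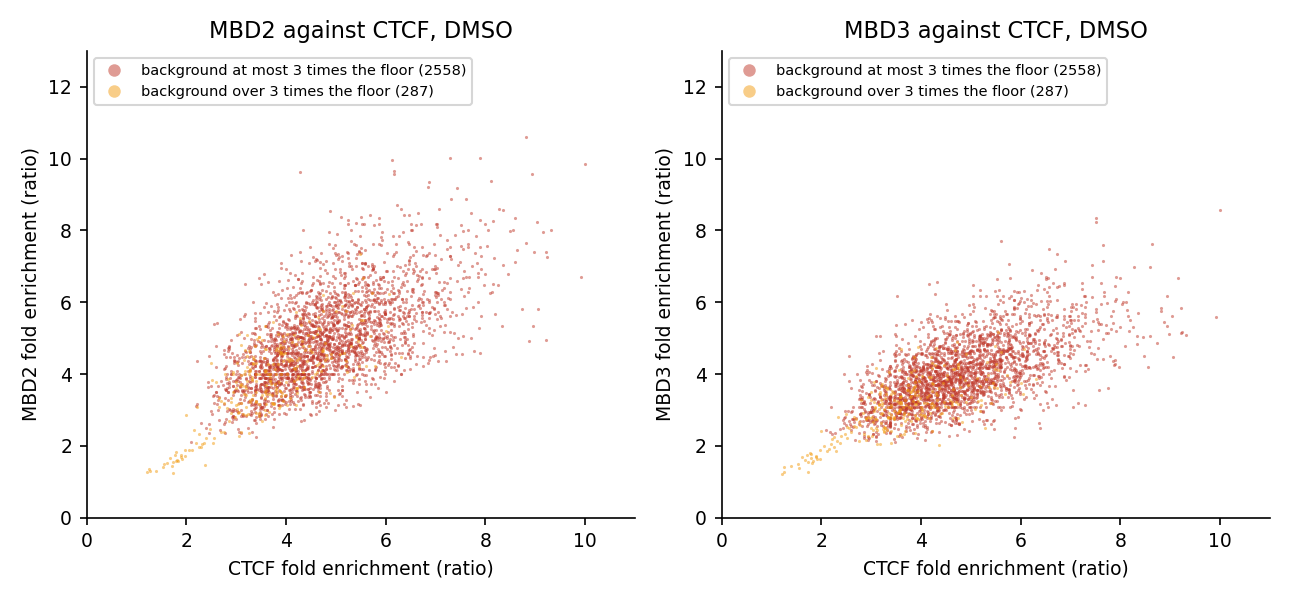
MBD2 (left) and MBD3 (right) fold enrichment (y axis, ratio) against CTCF fold enrichment (x axis, ratio) at the members in DMSO, 1 point per region. Red points are the 2558 members with a local CTCF background of at most 3 times the floor of the list, orange points the 287 above it. Both subunits go up with CTCF, with Spearman's rho of 0.648 for MBD2 and 0.635 for MBD3.

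The 3 proteins peaked at nearly the same position. The MBD2 summit lay a median of 11 bp (interval 11 to 12) from the CTCF summit, and within 50 bp at 95.5% of members (94.7 to 96.2). The MBD3 summit lay a median of 12 bp (12 to 13) away, and within 50 bp at 94.9% (94.0 to 95.6). All 3 summits fell within a span of 25 bp at 1877 members (65.9%) and within 50 bp at 2582 (90.7%), with a median span of 19 bp. Offsets fell to both sides, with median signed values of 0 bp for MBD2 and 1 bp for MBD3. At regions with TET1 as well, the median span of the same 3 summits was 17 bp (16 to 17). Where a subunit was the only partner, its summit was a little further from that of CTCF, by a median of 13 bp for MBD2 and 16 bp (14 to 18) for MBD3, and 86.9% (84.6 to 88.9) of the MBD3 summits were within 50 bp. Libraries were cut to fragments of 200 to 500 bp, far longer than these distances, so summit distances do not separate binding to one site from binding to adjacent sites.

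**Figure D3:**
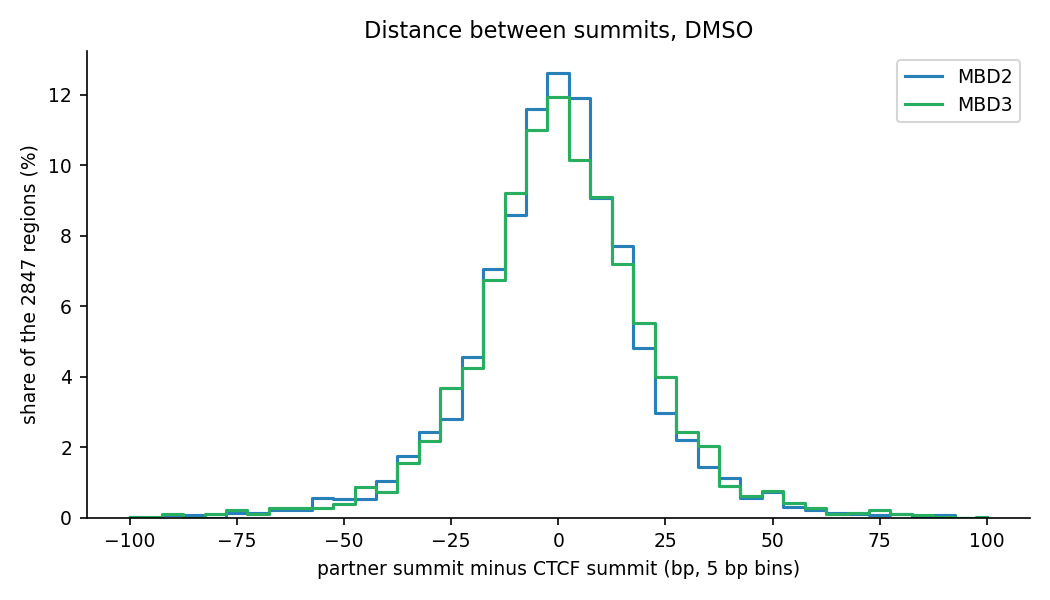
Share of the 2847 members (y axis, percent, in 5 bp bins) by the position of the MBD2 or MBD3 summit minus that of the CTCF summit (x axis, bp) in DMSO. Both curves centre on 0 bp, and the medians of the absolute distance are 11 bp for MBD2 and 12 bp for MBD3.

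Members were intermediate in width, and nearly all matched 1 region of each partner. Their median width was 257 bp (254 to 259), against 295.5 bp with all 3 partners (293 to 297) and 239 bp with MBD2 alone (237 to 240). No MBD2 or MBD3 region served 2 members, and 1 member overlapped more than 1 region of MBD2 and 1 more than 1 of MBD3. The overlap covered 50% or more of the shorter region at 2837 members for each subunit, and all of the shorter region at 1354 members for MBD2 and 1405 for MBD3. Several summits were listed within 44 members (1.55%, 1.15 to 2.07), against 219 regions with all 3 partners (5.45%, 4.79 to 6.20). The share over all CTCF regions is not given here, so this count is not read as a result about the members.

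The members of highest CTCF fold had folds above 9 and lay on different chromosomes (positions in hg19, counted from 1). Here and under treatment, members are named by rank among those on chromosomes 1 to 22 and X with a CTCF −log10 q of 5 or more. The first, at chr16:46707369-46707717, had a CTCF fold of 10.0, an MBD2 fold of 9.85 and an MBD3 fold of 8.56, the highest MBD3 fold of all members. At chr18:12934523-12934794 the CTCF fold was 9.91, with 6.71 for MBD2 and 5.60 for MBD3. A region at chr21:46712385-46712722 had 9.33 for CTCF, 8.01 for MBD2 and 5.08 for MBD3. Of these 3, none appeared in a treated list, and their nearest TET1 region was 127742, 274279 and 153659 bp away. The next, at chr6:135744825-135745113, had folds of 9.23, 7.25 and 5.17, and was listed for TET1 under BPK25. The fifth, at chr1:183654318-183654574, had a CTCF fold of 9.22 with lower MBD2 and MBD3 folds of 4.96 and 5.14.

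Members of highest subunit fold were not the same as those of highest CTCF fold, apart from the region on chromosome 16. The MBD2 fold reached 10.6 at chr8:14717729-14717971, where CTCF had 8.81 and MBD3 5.85. It was 10.0 at each of 2 regions, at chr2:3466029-3466301 and at chr6:137592761-137593070, with CTCF folds of 7.29 and 7.89. The MBD3 fold was 8.33 at chr4:123638083-123638326, where MBD2 had 6.37, and 8.24 at chr11:65652168-65652543, where MBD2 had 8.14. In each of these 5 regions both subunit summits lay within 27 bp of the CTCF summit, and none was listed under a treatment.

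Regions at the middle of the distribution show how ordinary members look. At chr1:110602636-110603003 the CTCF fold of 4.60 rested on 52 fragments at the summit, and MBD2 and MBD3 had folds of 3.91 and 3.79. At chr12:68434321-68434529 the CTCF values were the same, with an MBD2 fold of 5.86 and an MBD3 fold of 3.56. A region at chr7:38255347-38255603 reached a CTCF fold of 4.60 on 32 fragments, with 6.18 for MBD2 and 3.69 for MBD3.

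The share of regions without TET1 was larger at weaker sites. Among the 6863 CTCF regions with both subunits, the share without TET1 was 57.6% (53.9 to 61.2) in the second decile of CTCF fold and 14.6% (12.1 to 17.4) in the highest. By MBD2 fold it was 61.5% (57.8 to 65.0) in the second decile and 14.7% (12.3 to 17.6) in the highest, and by MBD3 fold 56.3% and 16.2% (13.6 to 19.1). The lowest decile departed from this order, with 49.9%, 48.0% and 46.7% without TET1. Each list has its own detection limit, and the least significant TET1 region had a −log10 q of 1.30 and the smallest summit pileup was 17 fragments. The rule used these lists, so the shares describe the choice of members. In the highest decile of CTCF fold, from 7.28 upward, 100 of 687 regions had no TET1 listed.

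**Figure D4:**
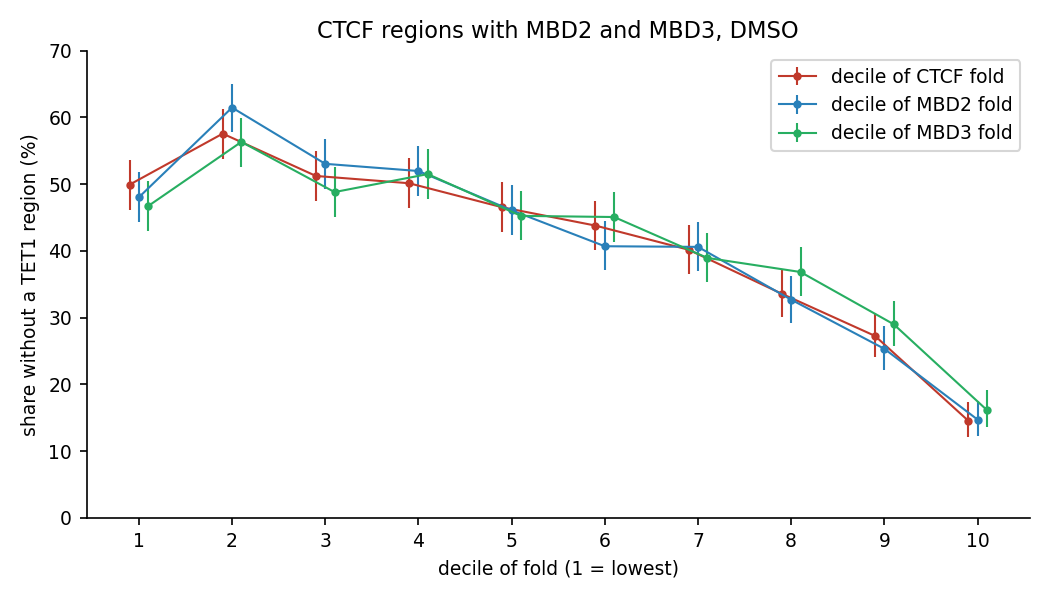
Share of CTCF regions with MBD2 and MBD3 that have no TET1 region in DMSO (y axis, percent) by decile of CTCF, MBD2 or MBD3 fold (x axis, 1 = lowest). Bars are 95% Wilson intervals over regions. The shares are largest in the second decile and smallest, at 14.6%, 14.7% and 16.2%, in the highest.

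The median gap from a member to the nearest TET1 region was 90203 bp (interval 84037 to 98432, n = 2843). It was larger in other classes without TET1, at 102306 bp (96104 to 108274) with MBD2 alone and 112193 bp (104779 to 119080) with no partner. On sequences with no TET1 region lay 4 members. A TET1 region stood within 1000 bp of 39 members (1.37%, 1.00 to 1.87) and within 10000 bp of 302 (10.6%, 9.53 to 11.8). Among regions with MBD2 alone, 1.20% (0.897 to 1.61) and 10.2% (9.28 to 11.2) had one at these distances. The closest TET1 region stood 21 bp from a member at chr4:152026162-152026736. Next among members on chromosomes 1 to 22 and X with a CTCF −log10 q of 5 or more, one stood 153 bp from the member at chr13:45904641-45904893. That on chromosome 13 overlapped its MBD3 region by 37 bp, and a member at chr8:86363901-86364101 overlapped its MBD3 region by 24 bp. Just outside, 2 regions with all 3 partners overlapped their TET1 region by 53 bp, at chr1:54326635-54326892, and by 91 bp, at chrX:133530223-133530591, with TET1 folds of 2.43 and 2.04.

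Under treatment, 133 of the 2847 members (4.67%) overlapped a region of at least 1 of the 8 treated lists, 127 of them under BPK25 and 16 under IAA. Over all CTCF regions of DMSO the share in at least 1 treated list was 5.70%, in at least 1 BPK25 list 5.38% and in at least 1 IAA list 1.16%. It was 15.5% of regions with all 3 partners, 5.53% of those with MBD3 alone and 1.86% of those with MBD2 alone. The 4 BPK25 and 4 IAA lists took no part in choosing the members. Listed in a single treated list were 113 members. So were 390 of the 4016 regions with all 3 partners and 65 of the 3660 with MBD2 alone. With MBD3 alone it was 34 of 940. In 3 or more treated lists were 13 members, of which 5 were in 3 lists, 4 in 4, 1 in 5 and 3 in 6. In 3, 4, 5 and 6 lists were 34, 30, 18 and 22 regions with all 3 partners. A further 16 of those were in 7 lists and 18 in 8. Of regions with MBD3 alone, 4 were in 3 lists and 1 in 4. None with MBD2 alone was in 3 or more. Shares over all CTCF regions are not given for these counts, so they are not read as a result about the members. All of the 13 members had a local CTCF background in DMSO of over 3 times the floor, or one too significant to be solved. Raised background was found at 287 members in all (10.1%, 9.03 to 11.2), and at 1802 of all 17440 CTCF regions. Of the 287 members, 14.3% (10.7 to 18.8) were listed under a treatment, against 3.56% (2.91 to 4.35) of the 2558 members of low background. Over all CTCF regions, 20.0% of those of raised background and 3.79% of those of low background were listed. The part of background in these shares was not tested.

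CTCF itself was seldom listed at the members after treatment, in lists of 375 regions (BPK25) and 595 regions (IAA). Under BPK25, 22 members (0.773%, 0.511 to 1.17) had a CTCF region, against 1.27% of all 17440 DMSO CTCF regions, 3.78% (3.24 to 4.42) of those with all 3 partners and 0.191% (0.0927 to 0.394) of those with MBD2 alone. Of the 22, 12 lay on contigs outside chromosomes 1 to 22 and X, and on those chromosomes alone the share was 0.354% (0.193 to 0.651), against 0.875% of all CTCF regions there. Only 2 of the 22 had a low background, which is 0.0782% (0.0214 to 0.285) of such members, against 0.308% of all CTCF regions of low background. The median BPK25 CTCF fold at the 22 members was 3.01, against 4.73 over the whole list. The highest at a named member was 9.10, from 19 fragments, at chr4:182162005-182162723, a wide region of 719 bp. It had a DMSO CTCF fold of 2.75 and was also listed for MBD2 and TET1 under IAA. The next were at chr5:180796076-180796315 (BPK25 CTCF fold 6.54) and at chr8:12081111-12081700 (6.49), and they rest on 8 and 9 fragments.

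Both NuRD subunits were also seldom listed. Under BPK25, 17 members (0.597%, 0.373 to 0.954) had an MBD2 region, against 1.42% of all CTCF regions, and 17 had an MBD3 region, against 1.10%. Of these, 11 of the MBD2 and 2 of the MBD3 regions stood at members of low background, 0.430% (0.240 to 0.768) and 0.0782% of such members, against 0.764% and 0.218% of all CTCF regions of low background. Of the 17 with MBD3, 11 were off chromosomes 1 to 22 and X, on which the share was 0.213%, against 0.759% of all CTCF regions there. The MBD2 folds under BPK25 were highest at chr2:15777497-15777701 (6.28, 17 fragments), at chr6:117877057-117877388 (5.24, 14 fragments, also listed for TET1) and at chr7:111392168-111392563 (4.54, 12 fragments). The MBD3 folds were highest at chr6:43037839-43038113 (6.11, 10 fragments) and at chr17:59713385-59713605 (5.82, 7 fragments). The median folds at the 17 members of each list were 3.68 for MBD2 and 3.17 for MBD3, against 4.51 and 4.37 over the whole lists. Depth differed between these lists, since the MBD2 list kept 49.5% of the DMSO floor and the MBD3 list 7.92%.

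TET1 was listed under BPK25 at 98 members (3.44%, 2.83 to 4.18), although none had a TET1 region in DMSO. This is close to the share over all CTCF regions, 3.84%. The share was 11.2% (10.2 to 12.2) where TET1 had been listed in DMSO with both subunits, 1.48% (1.13 to 1.92) with MBD2 alone, 1.70% (1.05 to 2.75) with MBD3 alone and 0.539% (0.356 to 0.815) with no partner. Over all 11530 CTCF regions without TET1 in DMSO, 190 (1.65%) were listed for TET1 under BPK25. The members made up 24.7% of the 11530 and 51.6% (44.5 to 58.6) of the 190. Counted from the TET1 list, 97 of the 278 BPK25 TET1 regions without a DMSO TET1 region (34.9%, 29.5 to 40.7) lay at a member. Of all 777 regions of that list, 98 lay at a member, and the rule keeps members free of DMSO TET1. Of the 98, 76 were at members of low background, where the share was 2.97% (2.38 to 3.70), against 2.96% of all CTCF regions of low background and 1.21% (0.890 to 1.64) of those with MBD2 alone. A −log10 q of 5 or more in every list, DMSO TET1 included, redraws the classes. Of the 2678 regions it put in the members' class, 2287 were members as reported. Of those 2678, 1.90% (1.45 to 2.50) had a BPK25 TET1 region. The share was then 8.61% with all 3 partners, 0.642% (0.428 to 0.961) with MBD2 alone and 0.234% (0.119 to 0.461) with no partner. The share over all CTCF regions is not given at this cut. Without the cut it was 3.84%, above the 3.44% of the members.

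In each quartile of CTCF fold the members' share lay between those of regions with all 3 partners and of regions with MBD2 alone. In quartiles of CTCF fold set over all CTCF regions, lowest first, 3.86%, 3.08%, 2.58% and 4.40% of members had a BPK25 TET1 region. The shares over all regions were 2.61%, 2.75%, 2.84% and 7.16%, below the members' shares in the lower quartiles and above them in the upper ones. Regions with all 3 partners gave 16.1%, 8.53%, 7.83% and 12.5%, and those with MBD2 alone gave 1.30%, 1.67%, 1.78% and 0.850%. For the members the intervals were 2.43 to 6.10, 2.04 to 4.61, 1.71 to 3.88 and 3.21 to 6.01. Those of the regions with MBD2 alone were 0.748 to 2.27, 1.07 to 2.59, 1.13 to 2.79 and 0.364 to 1.98. They cover counting over regions only, and the difference between these classes was not tested. In DMSO the medians of the 98 members were near those of the other members. Their median CTCF fold was 4.71 (4.31 to 5.24), against 4.60 (4.54 to 4.65) at the 2749 not listed, and their median MBD2 and MBD3 folds were 4.72 and 3.80, against 4.74 and 3.87. Among members of low background the CTCF medians were 5.00 (4.51 to 5.77) at those listed and 4.68 (4.64 to 4.73) at the others.

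The TET1 regions at these 98 members centred on the CTCF summit. Their median fold was 5.29 (5.07 to 5.75), against 5.26 over the whole list. Of the 98 summits, 85 (86.7%) lay within 50 bp of the DMSO CTCF summit, with a median distance of 19 bp. With all 3 partners 367 of 449 (81.7%) did so, and with MBD2 alone 44 of 54 (81.5%). At the summit the TET1 regions of the members had a median of 14.5 fragments (14 to 15). This is 12.5 times the floor of that list, against a median of 13.8 times over the whole list. The smallest TET1 pileup of any region was 6.90 times the floor in the BPK25 list and 2.99 times the floor in the DMSO list. The TET1 fold was highest at members at chr1:13106493-13106873 (8.54, 18 fragments), at chr19:43297697-43297910 (8.34, 17 fragments) and at chr14:69596059-69596282 (7.51, 25 fragments). At these 3 the DMSO CTCF folds were 6.28, 5.01 and 4.47, and no other treated list named them. For 91 of the 98 members TET1 under BPK25 was the only treated listing. This count is not given for other classes, so it is not read as particular to the members.

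**Figure D5:**
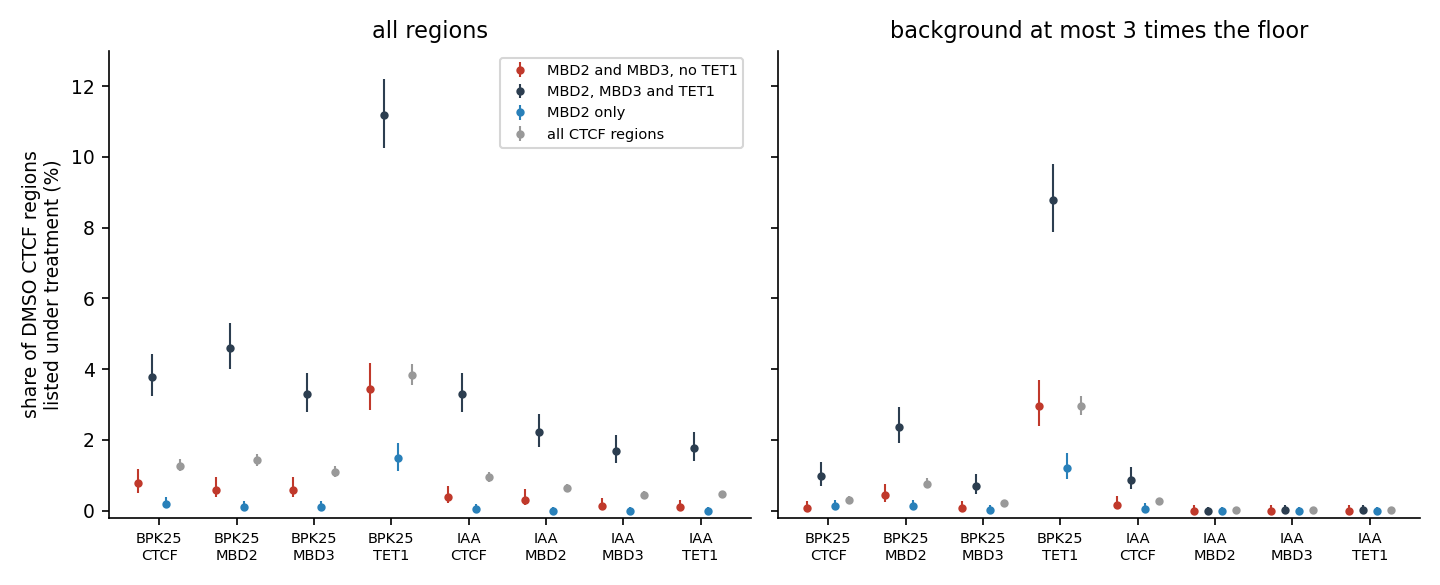
Share of DMSO CTCF regions listed under each treatment and antibody (y axis, percent, with 95% Wilson intervals over regions) for the members, regions with all 3 partners, regions with MBD2 alone and all CTCF regions. The left panel holds all regions and the right panel those with a DMSO background of at most 3 times the floor. TET1 under BPK25 stands above the other lists for the members in both panels, at 3.44% and 2.97%. With 777 regions it is also the longest treated list.

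Under IAA, few members were listed for any antibody. A CTCF region was found at 11 members (0.386%, 0.216 to 0.691), against 0.952% of all CTCF regions, and an MBD2 region at 9 (0.316%, 0.166 to 0.600), against 0.631%. MBD3 was listed at 4 members (0.140%, 0.0547 to 0.361), against 0.442%, and TET1 at 3 (0.105%, 0.0358 to 0.309), against 0.459%. Regions with all 3 partners gave 3.29%, 2.22%, 1.69% and 1.77%. Of the members of low background, 4 had a CTCF region under IAA and none an MBD2, MBD3 or TET1 region, where 0 of 2558 regions (3 counts) allows a share of up to 0.117%. Over all CTCF regions of low background these shares were 0.263%, 0.00642%, 0.0128% and 0.0128%. On chromosomes 1 to 22 and X the share of members was 0.213% for CTCF, against 0.765% of all CTCF regions there, and 0.0354% for MBD3, against 0.313%.

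At the 11 members with a CTCF region under IAA the median IAA fold was 2.06, against 6.48 over the whole IAA CTCF list. The highest CTCF folds under IAA were found at 3 members listed in no other treated list. At chr9:70401781-70402156 the IAA fold was 6.48 from 13 fragments, and this member had one of the higher DMSO CTCF folds, 8.97. At chr1:100925105-100925400 it was 6.08, and at chrX:67416860-67417097 it was 4.84, with DMSO CTCF folds of 4.20 and 4.13.

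Members found in most treated lists had low folds on high background. A region at chr17:22254659-22255344 was in 6 treated lists. Its DMSO CTCF fold was 1.74 on a background of 148 times the floor, and its folds under treatment were between 1.55 and 2.61. On chromosome X, a region from 58580587 to 58581111 was listed for all 4 antibodies under BPK25, with folds of 2.37 to 4.15, on a DMSO background of 43.8 times the floor. Another from 61689871 to 61690079, at 76.4 times the floor, was in the BPK25 lists of CTCF, MBD2 and MBD3 and in the IAA list of MBD2. The region at chr11:51588856-51589080 was in 4 treated lists with a DMSO CTCF fold of 1.80, but its background was not solved. It was the only named member with an MBD3 region under IAA.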

How the data were processed

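ChIP-seq peak lists of HEK293T cells were analysed, 12 in all, 1 for each treatment and antibody. Per the submitters' processing notes, the tools included Bowtie2 2.3.4, SAMtools 1.9, MACS2 2.1.2 and bedtools 2.25.0, with build hg19, and peaks were called on replicates 1 to 3 together against control, per the names in the files. The caller's settings were not given in the sources used here. Within the deposited lists the fold enrichment is a linear ratio at the summit, significance is given as −log10 p-value and −log10 q-value, and the summit is an offset in bp from the start, all as the authors' caller wrote them. Nothing in the labels says that replicates were separate cultures.

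An interval with several summits was taken once, by its most significant summit. Where several partner regions overlapped, the one of largest overlap was used. Pileup and background were solved from the deposited fold, read as pileup plus 1 over background plus 1, and the deposited −log10 p, read as a Poisson upper tail, with whole pileups, a tolerance of 0.02% and −log10 p up to 150. Shares carry 95% Wilson intervals and medians exact binomial intervals. The code was tested on simulated data. Alternatives are in the closing section. Named regions have a −log10 q of 5 or more in the CTCF list and lie on chromosomes 1 to 22 and X. They are the 5 of highest CTCF fold, the 3 of highest MBD2 and of highest MBD3 fold, up to 3 of highest fold for each treated list, the 3 nearest the median CTCF fold, the 3 in most treated lists, and those nearest the limits of the overlap rule. The members, lists and alternatives were chosen with earlier results of these data known. The split by background within the treated lists and by CTCF quartile was chosen after the results were seen. No hg19 genome or annotation was used here, so sequences and genes are not given. Python 3.11.15, numpy 2.4.6, pandas 2.3.3, SciPy 1.17.1 and matplotlib 3.10.9 were used.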

Additional observations from a re-analysis of the deposited data

How the results depend on the processing

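Of 84 values, 14 results under 6 alternatives, 62 stayed within the 95% interval of the reported value or, for the number of members, within 1.5 times it. The number of members was 2678 with a −log10 q of 5 or more in every list, of which 2287 were members as reported, 2821 on chromosomes 1 to 22 and X, 2840 with an overlap of 50% of the shorter region, 2835 with summits within 150 bp, 2808 with no TET1 region within 1000 bp and 2558 at low background. With a −log10 q of 5 or more the median folds were 4.75 for CTCF, 4.92 for MBD2 and 4.05 for MBD3, the median summit distances 10 bp to MBD2 and 11 bp to MBD3, and the shares listed under BPK25 0.485% for CTCF and 1.90% for TET1. At low background the median folds were 4.69, 4.84 and 3.96, the BPK25 shares of CTCF and MBD3 0.0782% each, the IAA share of CTCF 0.156%, and those of MBD2, MBD3 and TET1 under IAA 0%. Without contigs, the listed shares came to 0.354% (CTCF) and 0.213% (MBD3) under BPK25 and 0.213% (CTCF) and 0.0354% (MBD3) under IAA. With no TET1 region within 1000 bp they were 0.356% for MBD3 under BPK25 and 0.214% for CTCF under IAA. The cause of these moves was not tested. No paired analysis was possible because each list pools its 3 replicates, and for the same reason no replicate could be left out. No share was adjusted for the depth of its list.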

Other observations

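The members were spread over the genome. On chromosomes 1 to 22 and X they made up between 10.6% (8.19 to 13.7) of the CTCF regions, on chromosome 13, and 19.6% (16.4 to 23.2), on chromosome 16. Chromosome 13 held 51 members beside 137 regions with all 3 partners, so that 27.1% of its regions with both subunits lacked TET1, against 52.3% on chromosome 16, where the numbers were 102 and 93. None of the 14 CTCF regions on chromosome Y was a member, and 26 members lay on contigs. The median distance from a member's summit to the next CTCF summit was 33565 bp (31271 to 35736), against 29200 bp (27833 to 30576) for regions with all 3 partners and 35981 bp (34050 to 38483) for those with MBD2 alone. A second CTCF summit within 2000 bp was found at 133 of 2821 members (4.71%, 3.99 to 5.56). The share was 7.55% (6.77 to 8.42) with all 3 partners and 4.75% (4.11 to 5.49) with MBD2 alone. These distances were taken on chromosomes 1 to 22 and X only.

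The 44 members with several summits were wider, with a median of 566 bp against 255 bp at the 2803 with a single summit. Their median folds were 4.0 (3.38 to 4.51) for CTCF, 4.0 (3.23 to 4.47) for MBD2 and 3.04 (2.67 to 3.41) for MBD3, against 4.61, 4.75 and 3.87 at members with 1 summit. Of them, 8 (18.2%, 9.51 to 32.0) were listed under a treatment, against 4.46% (3.76 to 5.29). No reason for these differences was tested.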
